A study of Homo sapiens with 24 samples.

Results

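The change in the response of OVCAR8 cells to EPZ015666 between day 3 and day 5 was measured for 6328 genes. It was the log2 difference between drug and vehicle libraries at day 5 minus the same difference at day 3, called the interaction here, on log2(RPKM + 1). It rested on 8 of the 24 libraries of the study. OVCAR8 is an ovarian cancer cell line, and EPZ015666 is an inhibitor of the arginine methyltransferase PRMT5. Its cells had received 5 µM EPZ015666 for 3 days, the same for 5 days, or DMSO, the vehicle, for either time. Each of these 4 groups held 2 libraries, named A and B, of stranded poly(A) RNA from 1 cell line, so the groups differ in treatment and day alone as far as the labels say. The labels do not say that A and B were separate cultures, so p-values here measure the spread between libraries, which may be technical. The labels do not say when cells were plated relative to the drug or when medium was renewed, and each day had its own DMSO libraries, so a positive or negative interaction can come from either arm.

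PRMT5 works in a complex with WDR77 and places symmetric dimethyl marks on arginines of histones and of proteins that assemble spliceosomal snRNPs. EPZ015666 blocks the enzyme without removing the protein, and the methyl marks already placed are lost only as proteins turn over and cells divide, so effects of such inhibitors are often followed over days. A culture also changes over the same days as cells become denser and medium is used, and the vehicle arm carries these changes too. Because bulk RNA was measured, fewer cells of a type and less RNA per cell cannot be told apart.

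Recovered reads per OVCAR8 library ran from 23.88 M to 30.49 M. The keratins of simple epithelia were present in each library (KRT8 at 22.8 to 27.8 RPKM, KRT18 at 150.7 to 184.9 RPKM), as was vimentin (VIM at 97.6 to 125.4 RPKM). Among further mesenchymal markers, COL1A1 ran from 49.0 to 58.5 RPKM and FN1 from 9.47 to 11.8. CDH2 was at no more than 0.805 RPKM, ZEB2 0.335, ZEB1 0.156 and COL3A1 0.00439. Of the other epithelial and ovarian markers, MSLN ran from 5.57 to 47.96 RPKM, KRT7 from 16.9 to 35.6 and MUC1 from 1.42 to 2.09, whereas PAX8 was at no more than 0.0950 RPKM, EPCAM at no more than 0.744, KRT19 at no more than 0.0351, WT1 at no more than 0.0622 RPKM and MUC16 at no more than 0.000509 RPKM. Leukocyte markers summed to 0.516 to 1.22 RPKM over the 2 of 7 in the table, and endothelial markers to no more than 0.0156 RPKM over 2 of 3. These RPKM divide reads by the gene span, introns included, which lowers the values of genes with long introns. Levels of different markers are therefore not comparable, and a low value does not show that a marker was absent. Library B of EPZ015666 at day 5 stood apart. The 5 genes of the ribosomal RNA locus took 4.54% of its reads, against 0.226% to 0.799% in the other 7, and the SD of the A minus B differences over genes was 0.238 in its group against 0.127 to 0.149 in the others. Values without it are given beside several of the results.

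Between day 3 and day 5 the drug effect became lower for 326 genes and higher for 146, or 472 of 6328 at an adjusted p below 0.05 in limma (7.46%, with 5.15% lower and 2.31% higher). The largest negative interactions among genes with a mean of at least 5 RPKM belonged to CEBPD, CDKN1C, NAPRT, BCAM, ID1 and SOCS3, and the largest positive ones to AHNAK, MAP1B, HSPA5, PURB and ADAMTS1. Differences were small. The median interaction was -0.28 among the lower genes and 0.25 among the higher ones, the median SE over all genes was 0.06, and 17 of the 472 had an interaction past a 1.5-fold ratio. Median-of-ratios scaling of the libraries turned the split around, to 248 higher and 184 lower (57.4% higher against 30.9%), and totals without ribosomal RNA and mitochondrial genes gave 187 higher and 220 lower (45.9% higher), while each of the 472 kept its sign under both. The 472 genes were picked for their interactions in these same libraries, so signs kept under rescaling or without 1 library are no separate support. The calls need all 8 libraries. Without any 1 of them between 0 and 6 genes passed, also 0 without library B of EPZ015666 at day 5, although all 472 kept their sign in each of the 8 fits and 1440 to 1949 genes had an unadjusted p below 0.05, against 1970 with all libraries.

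The drug effect was mostly the same kind of effect at both days, and larger at day 5. At day 5, 3558 genes differed between EPZ015666 and DMSO (56.2%), 1338 higher (21.1%) and 2220 lower (35.1%). At day 3, 2341 genes differed (37%), 985 higher (15.6%) and 1356 lower (21.4%). The SD of the effect over all genes was 0.30 at day 5 and 0.22 at day 3 on the log2 scale, and 77.2% of genes had the same sign at both. These SDs include the spread between replicates. It was widest in EPZ015666 at day 5, with an SD of A minus B of 0.238 against 0.127 to 0.149 in the other groups. Among the 472 genes with an interaction, the effect was larger at day 5 in 310, smaller in 17 and of the other sign in 145. In 204 of them the drug effect passed at day 5 and missed at day 3, in 36 the reverse was the case and in 232 it passed at both, in 25 of these with opposite signs.

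**Figure D1:**
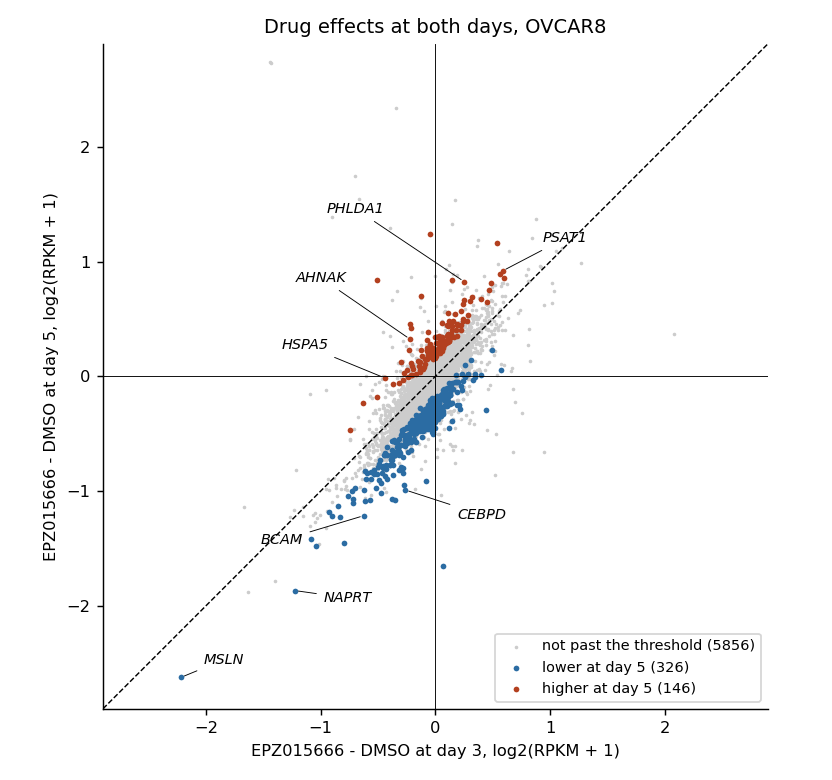
Drug effect at day 3 (x axis) against drug effect at day 5 (y axis), both as EPZ015666 minus DMSO on log2(RPKM + 1), for the 6328 genes tested, with the dashed line marking equal effects. The 326 genes with a lower effect at day 5 lie below the line and the 146 with a higher effect above it, with HSPA5 at about 0 at day 5 and MSLN far down at both days (3 genes lie outside the axes).

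Seen along the other axis of the design, most of these genes moved in the vehicle arm. The DMSO level differed between day 5 and day 3 for 2322 genes (36.7%), with 1313 higher (20.7%) and 1009 lower (15.9%) at day 5. The EPZ015666 level differed for 1140 genes (18%), with 431 higher (6.81%) and 709 lower (11.2%). Of the 472 genes the DMSO change was the larger one in 358 and the EPZ015666 change in 114. The DMSO change alone passed in 299, the EPZ015666 change alone in 67, both in 101 and neither in 5. Of the 326 genes with a lower effect, 265 rose in DMSO and 85 fell in EPZ015666. Of the 146 with a higher effect, 125 fell in DMSO and 42 rose in EPZ015666. In 271 of the 326 both DMSO libraries of day 5 stood above each of the other 6 libraries, and in 116 of the 146 both stood below them. Over all genes tested the same was true of 28.2% and 19.2%. The 472 genes were picked by an interaction that holds the DMSO level of day 5, so a larger share among them is partly built in.

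**Figure D2:**
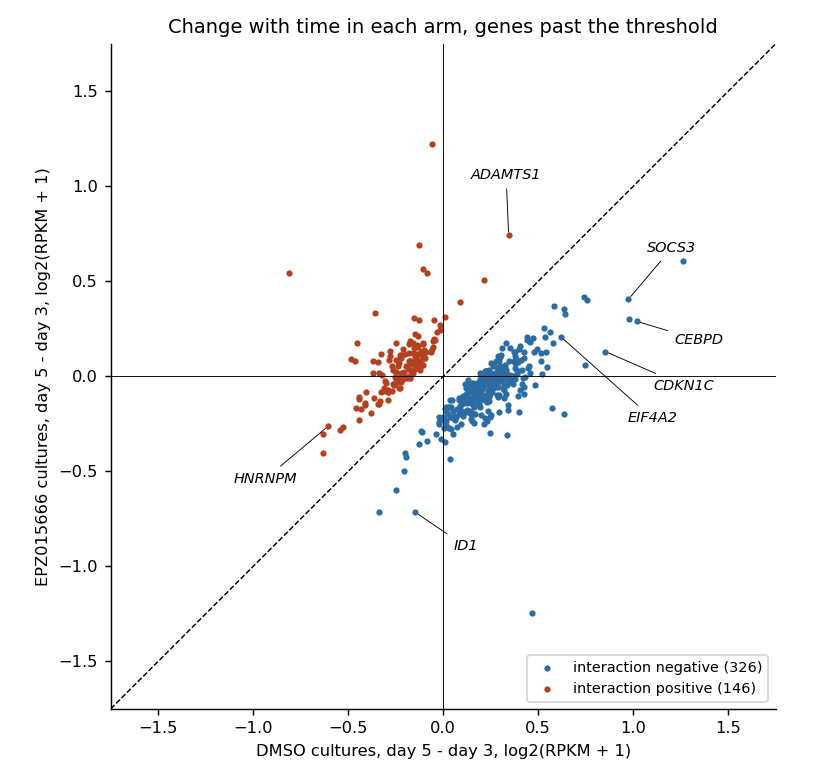
Change from day 3 to day 5 in DMSO (x axis) and in EPZ015666 (y axis) on log2(RPKM + 1) for the 472 genes with an interaction. Genes with a negative interaction lie below the dashed line of equal change and mostly right of 0, so they were higher in DMSO at day 5, while ID1 lies low because it fell in EPZ015666.

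The 2 largest negative interactions of the genes named by their size were those of CEBPD and CDKN1C. CEBPD, a transcription factor induced by cytokines and stress, had 54.3 and 58.6 RPKM in the DMSO libraries of day 3, 48.2 and 45.7 in EPZ015666 at day 3, 113 and 118 in DMSO at day 5 and 56.7 and 58.4 in EPZ015666 at day 5. The DMSO libraries of day 5 were about 2 times as high as any other, and the drug libraries of day 5 overlapped the DMSO libraries of day 3. The drug level was 0.831 of the DMSO level at day 3 and 0.499 at day 5, with an interaction of -0.73 ± 0.07 (SE, adjusted p = 0.0257).

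CDKN1C, the cyclin-dependent kinase inhibitor p57 (chr11:2883213-2885773, minus strand), showed the same layout. Its levels were 8.78 and 8.46 RPKM in DMSO at day 3, 6.72 and 6.35 in the drug at day 3, 16.5 and 16.3 in DMSO at day 5, and 7.55 and 6.96 in the drug at day 5. The DMSO libraries of day 5 stood alone, and the interaction was -0.72 ± 0.06 (adjusted p = 0.0257). SOCS3, which shuts off JAK-STAT signalling (chr17:78356778-78360077, minus strand), had 6.57 and 7.26 RPKM in DMSO at day 3 and 13.98 and 15.1 at day 5. In EPZ015666 it had 5.44 and 5.61 RPKM at day 3 and 7.68 and 7.60 at day 5. It rose in both arms with time, by 0.98 in DMSO and 0.41 in the drug on the log2 scale, and its interaction was -0.57 ± 0.08 (adjusted p = 0.027). PHLDA3, a p53 target that holds back AKT, had 0.996 of the DMSO level at day 3 (adjusted p = 0.927) and fell to 0.697 of DMSO at day 5.

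ID1, an inhibitor of basic helix-loop-helix factors that BMP signals induce (chr20:31605283-31606515, plus strand), differed from these because its drug arm moved. It had 56.4 and 55.0 RPKM in DMSO at day 3, 60.8 and 60.6 in the drug at day 3, 49.7 and 50.8 in DMSO at day 5, and 38.4 and 34.8 in the drug at day 5. The drug libraries were the highest of all at day 3 and the lowest at day 5. The fall with time was 0.72 on the log2 scale in EPZ015666 (adjusted p = 0.0019), whereas the DMSO change of -0.15 missed the threshold (adjusted p = 0.0597). Its interaction was -0.57 ± 0.07, and -0.50 without library B of EPZ015666 at day 5.

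**Figure D3:**
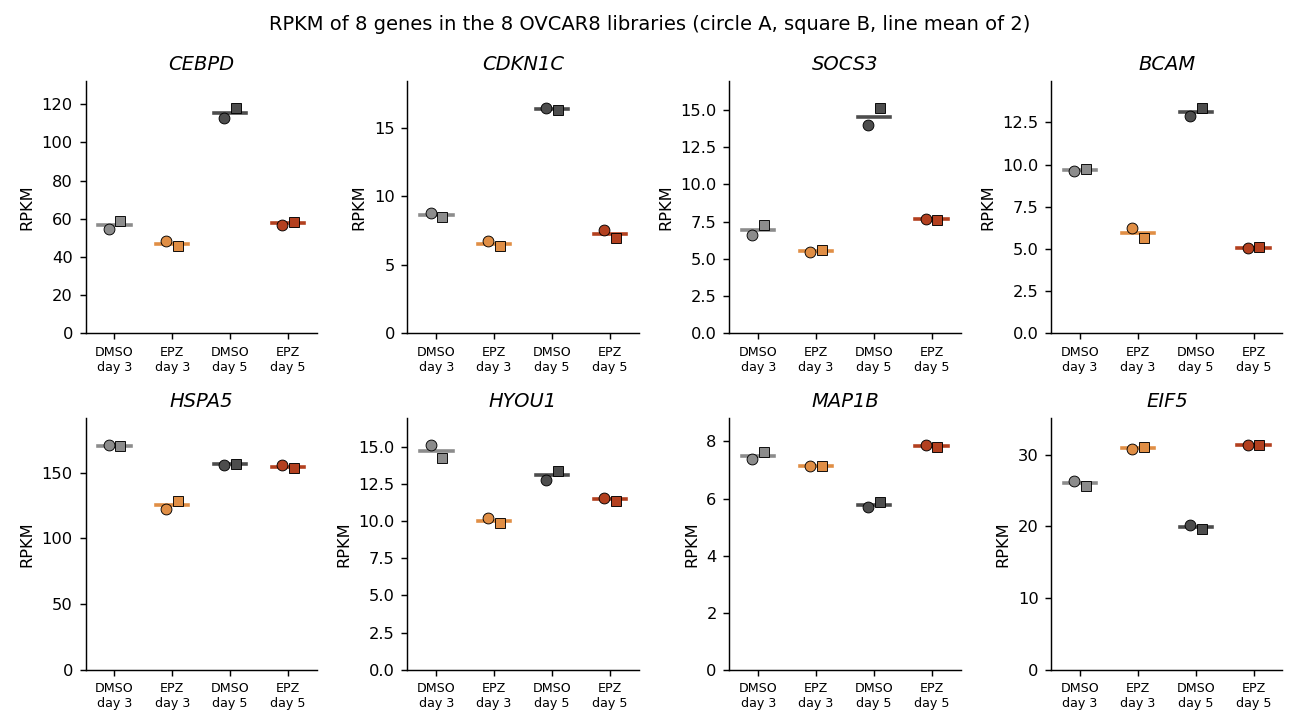
RPKM of 8 genes in each of the 8 OVCAR8 libraries by group (x axis), circles for library A, squares for library B, and lines for the mean of both, with each y axis starting at 0. The upper 4 genes have a negative interaction and are highest in DMSO at day 5, whereas HSPA5 and HYOU1 are lowest in EPZ015666 at day 3, and MAP1B and EIF5 are lowest in DMSO at day 5.

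Among the genes that the drug lowered at day 3 and lowered further at day 5 were BCAM, MSLN, IFITM2, MDK and LAMB2. BCAM, a receptor for laminin (chr19:44809059-44821421, plus strand), had 9.63 and 9.75 RPKM in DMSO and 6.24 and 5.64 in the drug at day 3, then 12.9 and 13.4 in DMSO and 5.05 and 5.10 in the drug at day 5. Its arms moved apart, up in DMSO and down in EPZ015666, and both changes passed. The drug level went from 0.613 to 0.387 of DMSO (interaction -0.59 ± 0.06, adjusted p = 0.0257). MSLN, mesothelin, a surface protein of mesothelial and ovarian tumour cells (chr16:760762-768865, plus strand), had the strongest drug effect among the genes named here. It fell to 0.190 of DMSO at day 3 and 0.144 at day 5, an interaction of -0.41 ± 0.08 (adjusted p = 0.0401). Its drug libraries stayed at 5.57 to 6.91 RPKM at both days and its DMSO libraries went from 30.8 and 31.9 to 48.0 and 46.7. The call on MSLN was lost under median-of-ratios scaling (adjusted p = 0.052). It was also lost with 0.1 in place of 1 added to RPKM, without a filter on low values, and with libraries corrected for GC content and transcript length. IFITM2, an interferon-induced membrane protein that restricts viruses, went from 0.664 to 0.466 of DMSO, and MDK, the growth factor midkine, from 0.755 to 0.528. LAMB2, a laminin chain of basement membranes, went from 0.650 to 0.546 of DMSO with an interaction of -0.25 ± 0.05 (adjusted p = 0.0473). The call on LAMB2 was lost under median-of-ratios scaling and with totals without ribosomal RNA and mitochondrial genes.

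NAPRT, UCP2 and FTL also had negative interactions. NAPRT, which makes NAD from nicotinic acid, fell to 0.381 of DMSO at day 3 and 0.227 at day 5. It had 11.7 and 12.6 RPKM in DMSO and 4.85 and 4.39 in the drug at day 3, and 14.5 and 16.6 in DMSO and 3.41 and 3.67 in the drug at day 5. DMSO and drug libraries did not overlap at either day, and the interaction was -0.64 ± 0.11 (adjusted p = 0.0323). UCP2, a carrier of the inner mitochondrial membrane, changed in the drug arm alone among its 2 arms, from 13.96 and 13.48 to 11.02 and 10.45 RPKM, with DMSO at 26.0 to 26.6 throughout (interaction -0.32 ± 0.05). The call on UCP2 was lost after the correction for GC content and transcript length. FTL, the light chain of the iron store ferritin, had 568.2 and 567.6 RPKM in DMSO at day 3 and 752.6 and 767.8 at day 5, and between 406.3 and 427.9 RPKM in the 4 drug libraries (interaction -0.43 ± 0.06, adjusted p = 0.027). Its processed copy FTLP3 gave -0.46 ± 0.07, and reads of the 2 cannot be told apart with certainty. The heavy chain, FTH1, did not pass (0.16 ± 0.06, adjusted p = 0.126). Of 8 tested genes of iron uptake and storage 7 had a positive interaction (median 0.08). TFRC passed as higher and FTL as lower, or 25% called against 7.46% of all genes. ACADVL and AGRN, which fell strongly at both days, also missed the threshold for a difference between days, with interactions of -0.24 ± 0.08 (adjusted p = 0.103) and -0.38 ± 0.09 (adjusted p = 0.0541).

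Of 23 genes for chaperones of the endoplasmic reticulum (ER) and the unfolded protein response, 5 had a positive interaction past the threshold and 0 a negative one. In 3 of them, HSPA5, HYOU1 and CANX, the drug lowered the level at day 3 and the deficit was smaller or gone at day 5. Chaperones such as HSPA5 fold proteins in the ER, and the unfolded protein response raises their genes through an ER stress element (ERSE) in their promoters, a CCAAT box and a CCACG box at a fixed spacing. Stretches of 200 bases before the start of 3 of these genes are shown because the genes have positive interactions and carry such elements, with the matching letters in capitals. They are from RefSeq on GRCh38.p14, read along the gene, at chr9:125241344-125241543 on the minus strand for HSPA5, chr5:179698729-179698928 on the plus strand for CANX, at 1 of its annotated starts, and chr11:119057206-119057405 on the minus strand for HYOU1.
HSPA5: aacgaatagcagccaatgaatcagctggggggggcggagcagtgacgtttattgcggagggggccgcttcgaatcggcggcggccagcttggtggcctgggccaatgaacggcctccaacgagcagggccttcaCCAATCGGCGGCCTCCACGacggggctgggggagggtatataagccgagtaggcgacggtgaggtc
CANX: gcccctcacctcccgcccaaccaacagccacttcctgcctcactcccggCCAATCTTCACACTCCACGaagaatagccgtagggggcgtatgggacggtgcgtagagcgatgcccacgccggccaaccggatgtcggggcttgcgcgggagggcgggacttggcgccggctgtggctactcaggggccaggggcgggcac
HYOU1: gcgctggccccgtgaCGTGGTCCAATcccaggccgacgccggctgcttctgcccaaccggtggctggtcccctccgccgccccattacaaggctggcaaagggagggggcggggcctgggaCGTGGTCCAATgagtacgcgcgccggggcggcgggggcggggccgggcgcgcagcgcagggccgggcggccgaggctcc
The HSPA5 and CANX stretches hold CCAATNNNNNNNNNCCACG and the HYOU1 stretch holds 2 copies of the variant ATTGGNCCACG, both on the other strand. Both motifs were searched on both strands, and each can overlap other boxes. In windows of 300 bases (250 before and 50 after the start), 0.0769% of 35116 windows in the table held the first and 0.0541% the second. Counted by gene, 0.161% of 27305 genes held either motif in a window. Of the 23 tested genes of the ER list 22 had a window, and 11 of them held either motif. SEL1L and EDEM1, also past the threshold, held neither. A match is a description of letters and not evidence of a bound site.

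HSPA5, the major ER chaperone (chr9:125234853-125241330, minus strand), had 171.3 and 169.9 RPKM in DMSO and 122.4 and 128.8 in the drug at day 3, and 156.1 and 156.4 in DMSO and 156.0 and 153.3 in the drug at day 5. Only the drug libraries of day 3 stood apart, below the other 6. The drug level was 0.736 of DMSO at day 3 (adjusted p = 0.000395) and 0.990 at day 5 (adjusted p = 0.743), with an interaction of 0.42 ± 0.05 (adjusted p = 0.0257). HYOU1, an ER chaperone of the HSP110 family (chr11:119044189-119057202, minus strand), went from 0.682 to 0.876 of DMSO. Its levels were 15.1 and 14.3 RPKM in DMSO and 10.2 and 9.88 in the drug at day 3, and 12.8 and 13.4 in DMSO and 11.6 and 11.4 in the drug at day 5, so the gap narrowed from both sides (interaction 0.33 ± 0.06, adjusted p = 0.0318). CANX, the membrane chaperone calnexin (chr5:179678628-179730925, plus strand), went from 0.796 to 0.959 of DMSO with an interaction of 0.26 ± 0.04. SEL1L and EDEM1, which serve ER-associated degradation, also had positive interactions (0.21 ± 0.03 and 0.42 ± 0.06) but from another side. The drug raised EDEM1 1.27-fold at day 3 and 1.98-fold at day 5, and SEL1L was raised at day 5 and missed the threshold at day 3. CALR, calreticulin, stayed below DMSO at both days (0.668 and 0.762) and its interaction of 0.19 ± 0.05 missed the threshold (adjusted p = 0.0631).

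Over the whole ER list 5 of 23 genes had a higher effect at day 5 and 0 a lower one (21.7% called against 7.46% of all genes). The median interaction was 0.01 against -0.04 for all, with 13 positive and 10 negative, and it was -0.0049 without library B of DMSO at day 5 and 0.03 without library B of EPZ015666 at day 5. At day 3 the drug lowered 14 of the 23 (21.4% of all genes), and at day 5 it lowered 13 (35.1% of all genes). From day 3 to day 5, 10 rose in EPZ015666 and 0 fell, against 6.81% and 11.2% over all genes. The median of this change was 0.11 against -0.01 over all genes. The 11 genes with either motif had a median interaction of 0.11, and the 11 without had 0.01. The interaction was positive in 7 and 6 of them and passed the threshold in 3 and 2. The medians of the drug change with time were 0.18 and 0.07. Whether the motifs go with the interaction was not tested. With each library corrected for the GC content and length of transcripts, 5 of 23 still passed.

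Targets of ATF4, the transcription factor of the amino acid response, were mostly raised by EPZ015666 at both days. Of 21 tested members 14 were higher than DMSO at day 3 (15.6% of all genes were) and 16 at day 5 (21.1% of all genes), and the list's median went from 0.29 to 0.41 on the log2 scale. The interaction passed for 3 of them, all positive (14.3% called against 7.46% of all genes, median of the list 0.10, with 15 of 21 above 0). PSAT1, an enzyme of serine synthesis (chr9:78297143-78330093, plus strand), had 5.602 and 5.346 RPKM in DMSO and 8.47 and 8.998 in the drug at day 3, and 4.26 and 4.08 in DMSO and 8.94 and 8.64 in the drug at day 5. The drug libraries of both days overlapped and the DMSO libraries of day 5 were the lowest, so the ratio went from 1.60 to 2.11 (interaction 0.33 ± 0.06, adjusted p = 0.0344). TRIB3, a pseudokinase that ATF4 induces (chr20:362835-397559, plus strand), moved in the drug arm. It had 1.56 and 1.56 RPKM in the drug at day 3 and 2.13 and 2.17 at day 5, with 1.29 to 1.41 in the 4 DMSO libraries (interaction 0.34 ± 0.04, adjusted p = 0.0257). SLC7A1, a carrier of cationic amino acids, had an interaction of 0.23 ± 0.05. SLC38A2, a carrier of neutral amino acids that was named for its size, went from 1.09-fold to 1.42-fold (interaction 0.36 ± 0.04, adjusted p = 0.0257). Of the 20 aminoacyl-tRNA synthetases 14 were raised at day 5 (21.1% of all genes) and 12 at day 3 (15.6% of all genes). WARS was the 1 with an interaction past the threshold (0.24 ± 0.05), or 5% called against 7.46% of all genes.

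AHNAK, MAP1B, EIF5, SRSF8 and HNRNPM had a higher drug effect at day 5 while their DMSO level fell. AHNAK, a very large scaffold protein (chr11:62433542-62556235, minus strand), had 14.4 and 16.8 RPKM in DMSO and 13.4 and 13.01 in the drug at day 3, and 10.9 and 11.04 in DMSO and 14.3 and 13.7 in the drug at day 5. The drug level was below DMSO at day 3 (0.846) and above it at day 5 (1.28), and both effects passed. The interaction was 0.55 ± 0.09 (adjusted p = 0.0342), and it missed the threshold after correction for GC content and transcript length (0.41, adjusted p = 0.0548). MAP1B, a microtubule-associated protein (chr5:72107234-72209570, plus strand), had 7.37 and 7.63 RPKM in DMSO at day 3 and 5.69 and 5.87 at day 5, with the drug at 7.14 and 7.15 at day 3 and 7.89 and 7.81 at day 5. Its 2 DMSO libraries of day 5 lay below the other 6, and its interaction was 0.45 ± 0.04 (adjusted p = 0.0257). EIF5, a translation initiation factor, went from 1.19-fold to 1.58-fold of DMSO while the drug libraries held at 30.8 to 31.4 RPKM (interaction 0.39 ± 0.04).

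SRSF8, a splicing factor, went from 1.28-fold to 1.70-fold (interaction 0.37 ± 0.04), and HNRNPM from 1.19-fold to 1.57-fold (0.34 ± 0.04). HNRNPM fell in both arms, by 0.60 in DMSO and by 0.26 in the drug on the log2 scale. In the list of SR proteins, hnRNPs and CLK kinases 4 of 37 were higher (SRSF8, HNRNPH1, HNRNPM and HNRNPU) and 1 lower (SRSF4), or 13.5% called against 7.46% of all genes. The median was 0.01, -0.03 after the correction for GC content and transcript length and -0.01 without library B of EPZ015666 at day 5. In the list of core spliceosome and snRNP genes 4 of 40 were lower (SNRPD2, SNRPF, LSM2 and LSM4) and 0 higher, with a median of -0.08. That is 10% called, near the 7.46% of all genes, and 0 of 40 after the same correction (median -0.03). PSMD2, a subunit of the proteasome cap, had an interaction of 0.25 ± 0.04, and PSMB3, a subunit of its core, one of -0.24 ± 0.05.

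Genes of growth signals and matrix held a few rises. PHLDA1, an immediate early gene (chr12:76025447-76033932, minus strand), had 4.32 and 4.36 RPKM in DMSO and 5.40 and 5.32 in the drug at day 3, and 2.70 and 2.95 in DMSO and 5.62 and 5.93 in the drug at day 5. The ratio went from 1.23 to 2.05 (interaction 0.58 ± 0.06, adjusted p = 0.0257). DUSP5, a phosphatase of ERK, was the other of 2 higher genes among 16 AP-1 and immediate early genes (0.27 ± 0.05). That is 12.5% called against 7.46% of all genes. CTGF, which YAP and TGF-beta induce, went from 1.55-fold to 1.91-fold (0.27 ± 0.05, adjusted p = 0.0414). ID1 was the 1 lower gene of the list of 18 YAP and TGF-beta targets, in which 3 were higher (22.2% called against 7.46% of all genes). ADAMTS1, a secreted protease (chr21:26835747-26845409, minus strand), rose with time in both arms, from 5.48 and 5.30 to 6.98 and 7.25 RPKM in DMSO and from 3.01 and 3.26 to 5.70 and 6.13 in the drug. Its drug level went from 0.582 to 0.831 of DMSO (0.40 ± 0.06, adjusted p = 0.0309). FN1, fibronectin, went from 0.829 to 1.04 of DMSO (0.30 ± 0.06, adjusted p = 0.0418), and SPARC, a matrix glycoprotein, from 0.995 to 0.810 (-0.28 ± 0.04, adjusted p = 0.027). The call on FN1 was lost after the correction for GC content and transcript length.

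In 25 genes the drug effect passed at both days with opposite signs. The 5 with the largest interactions were AHNAK and PURB, a nucleic acid binding protein, which turned from lower to higher, and UQCR10, ATP5IF1 and PHPT1, which turned from higher to lower. UQCR10, a subunit of respiratory complex III (chr22:29767369-29770413, plus strand), had 22.4 and 21.8 RPKM in DMSO and 25.2 and 25.4 in the drug at day 3, and 26.5 and 25.4 in DMSO and 20.6 and 22.7 in the drug at day 5. The drug libraries lay above DMSO at day 3 and below it at day 5, at 1.14 and 0.834 of its level (interaction -0.44 ± 0.07, adjusted p = 0.0293). ATP5IF1, which inhibits the mitochondrial ATP synthase, went from 1.10 to 0.835 (-0.37 ± 0.05), and PHPT1, a histidine phosphatase, from 1.08 to 0.857 (-0.33 ± 0.05). AHNAK and PHPT1 missed the threshold after correction for GC content and transcript length.

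Genes of ribosomes and of respiration had lower drug effects at day 5 as groups. Of 65 cytosolic ribosomal protein genes 17 passed, all lower, or 26.2% called against 7.46% of all genes, and 58 had a negative interaction (median -0.24 against -0.04 over all genes). At day 3 the drug lowered 7 of them and raised 1, against 21.4% and 15.6% over all genes. At day 5 it lowered 52 and raised 1, against 35.1% and 21.1% over all genes. The difference came with the vehicle arm. In DMSO 36 rose and 0 fell (20.7% and 15.9% over all genes), with a median of 0.21. In EPZ015666 2 rose and 0 fell (6.81% and 11.2% over all genes), with a median of -0.01. By library, the median deviation of the 65 genes from their own mean over the 8 libraries was 0.22 and 0.14 in the DMSO libraries A and B of day 5, and 0 or lower in the other 6, down to -0.13. RPL35, of the large subunit (chr9:124857880-124861981, minus strand), had 145.6 and 143.1 RPKM in DMSO and 140.2 and 141.9 in the drug at day 3, and 180.6 and 180.3 in DMSO and 125.5 and 135.2 in the drug at day 5 (interaction -0.43 ± 0.06, adjusted p = 0.027). RPS9, of the small subunit, went from 1.01 to 0.812 of DMSO (-0.29 ± 0.04), and RPL4 from 1.02 to 0.849 (-0.26 ± 0.04). Reads of ribosomal protein genes may be shared with their many processed copies, such as RPS24P8, whose interaction of -0.55 ± 0.11 was past the threshold (adjusted p = 0.0438) and missed it under median-of-ratios scaling (adjusted p = 0.052).

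The nuclear genes of oxidative phosphorylation gave 10 lower and 0 higher of 51 (19.6% called against 7.46% of all genes, median -0.20), with 50 of 51 negative. At day 5 the drug lowered 37 and raised 0, against 35.1% and 21.1% over all genes. At day 3 it lowered 10 and raised 5, against 21.4% and 15.6% over all genes. In DMSO 21 rose with time (20.7% of all genes did), and in EPZ015666 7 fell (11.2% of all genes did). CYC1, the cytochrome of complex III, had 170.3 and 167.9 RPKM in DMSO and 160.0 and 158.7 in the drug at day 3, and 201.3 and 196.8 in DMSO and 150.5 and 147.8 in the drug at day 5 (interaction -0.33 ± 0.04, adjusted p = 0.027). NDUFB11, of complex I, went from 1.02 to 0.836 of DMSO (-0.28 ± 0.04). The 13 genes encoded by the mitochondrial genome itself gave 0 of 13 past the threshold. Their median was 0.05, and -0.11 without library B of EPZ015666 at day 5, -0.10 without library B of EPZ015666 at day 3 and -0.04 without library A of DMSO at day 5, so its sign rests on these libraries. Their replicates spread more, with an SD between replicates of 0.12 for the list's level against 0.04 for the nuclear list. Of 47 mitochondrial ribosomal protein genes 10 were lower and 0 higher (21.3% called against 7.46% of all genes, median -0.14). MRPS34 was raised 1.22-fold at day 3 and not beyond its spread at day 5 (1.01-fold, interaction -0.26 ± 0.04, adjusted p = 0.0315).

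These groups shrank after correction for GC content and transcript length. They also shrank with the scaling: median-of-ratios gave 10 of 65 ribosomal protein, 4 of 51 oxidative phosphorylation and 6 of 47 mitochondrial ribosomal protein genes, and totals without ribosomal RNA and mitochondrial genes 12, 5 and 6. After the correction ribosomal protein genes gave 3 lower of 65 (median -0.16 against 0.00 over all genes), oxidative phosphorylation 1 of 51 (median -0.12) and mitochondrial ribosomal proteins 1 of 47 (median -0.07). The medians without library B of EPZ015666 at day 5 were -0.25, -0.23 and -0.13.

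**Figure D4:**
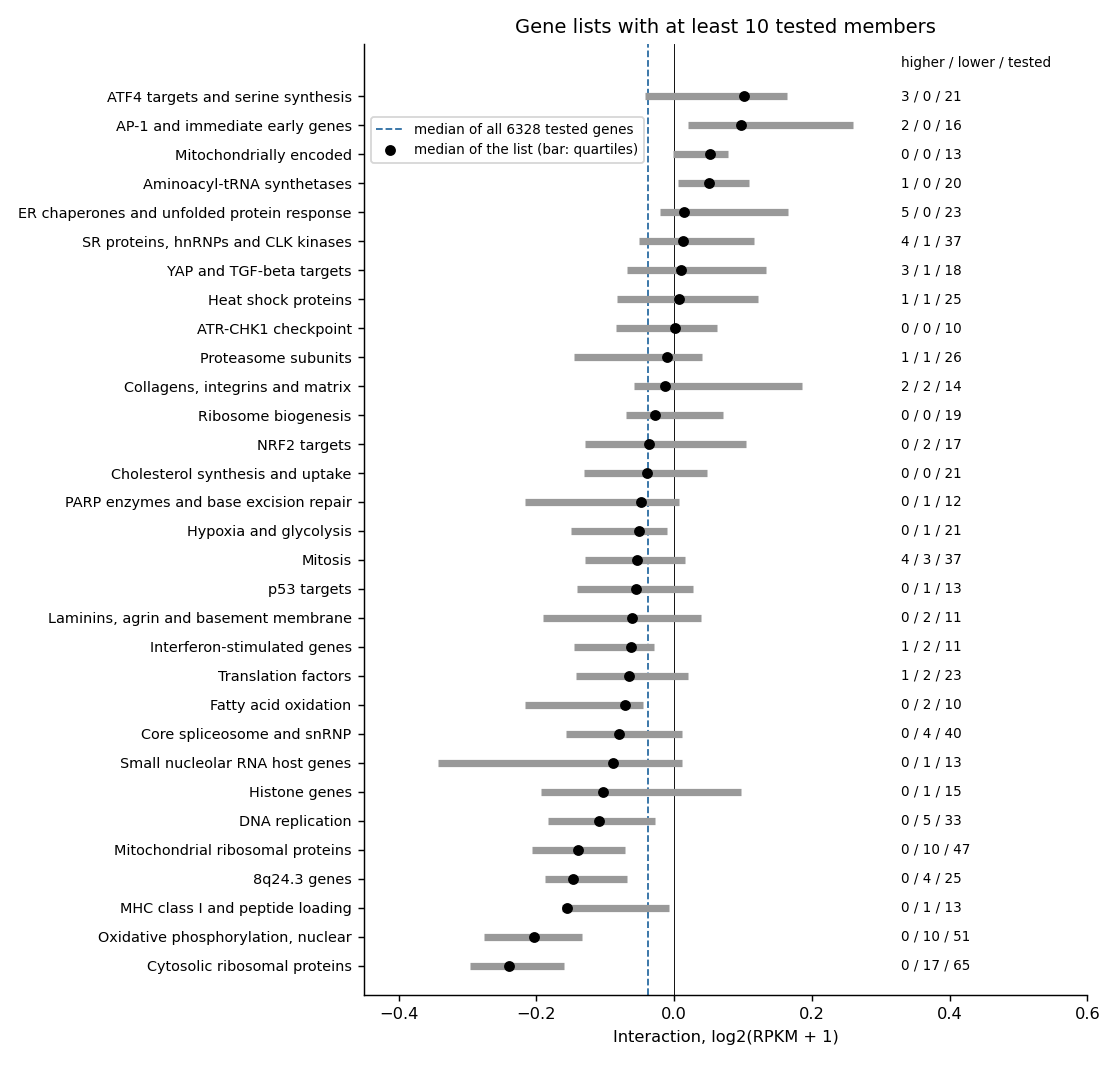
Median interaction (points) and quartiles (bars) on log2(RPKM + 1) for each gene list with at least 10 tested members, with the number of genes higher, lower and tested at the right and the median over all genes as a dashed line. The lists of cytosolic ribosomal proteins and nuclear oxidative phosphorylation lie lowest, at -0.24 and -0.20, and that of ATF4 targets highest, at 0.10.

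Many cell cycle genes fell with time in both arms. Of 33 DNA replication genes 17 fell in DMSO (15.9% of all genes) and 29 in EPZ015666 (11.2% of all genes), with 0 rising in either. Their interaction passed for 5, all lower (MCM7, ORC6, RFC4, POLD1 and TK1). That is 15.2% called against 7.46% of all genes, with a median of -0.11. MCM7, of the replicative helicase (chr7:100092728-100101940, minus strand), had 38.3 and 38.7 RPKM in DMSO and 31.9 and 31.5 in the drug at day 3, and 35.4 and 35.8 in DMSO and 26.0 and 25.4 in the drug at day 5. Its drug level went from 0.823 to 0.722 of DMSO (interaction -0.18 ± 0.04, adjusted p = 0.0467). TK1, thymidine kinase, went from 0.869 to 0.737 (-0.23 ± 0.05, adjusted p = 0.0466). Under median-of-ratios scaling 0 of the 33 passed, and likewise after the correction for GC content and transcript length, with 0 of 33. Without library B of EPZ015666 at day 5 their median was -0.06.

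The 37 mitosis genes were split, with 18.9% called against 7.46% of all genes, and after the correction 1 was higher and 1 lower. BIRC5, AURKB and CDC25B were lower and CENPF, CENPE, KIF20B and ASPM higher. With time 20 of 37 fell in DMSO (15.9% of all genes) and 27 in the drug (11.2% of all genes). BIRC5, survivin, turned from 1.09 to 0.925 of DMSO (interaction -0.23 ± 0.04, adjusted p = 0.0293). CENPF, a kinetochore protein, went from 1.16-fold to 1.65-fold (0.33 ± 0.04). MKI67, the Ki-67 antigen, went from 1.01-fold, which missed the threshold, to 1.30-fold, with 14.5 and 16.3 RPKM in DMSO at day 3 and 11.1 and 10.9 at day 5 against 14.1 to 15.6 in the 4 drug libraries. Its adjusted p was 0.0499, and it was 0.0996 after the correction for GC content and transcript length. Among regulators of entry into the cycle the interaction missed the threshold for CCND1 (0.27 ± 0.06, adjusted p = 0.0542), MYC (0.11 ± 0.06, adjusted p = 0.29), E2F1 (-0.24 ± 0.07, adjusted p = 0.0794) and CDKN1A (-0.08 ± 0.05, adjusted p = 0.282).

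The drug's own target was the 1 gene of its list past the threshold, among 8 tested members (12.5% called against 7.46% of all genes). PRMT5 (chr14:22920511-22929585, minus strand) had 5.04 and 4.99 RPKM in DMSO and 6.22 and 6.18 in the drug at day 3, and 5.10 and 5.22 in DMSO and 5.64 and 5.57 in the drug at day 5. The drug libraries lay above DMSO at both days, by 1.24-fold and 1.09-fold, and the interaction was -0.16 ± 0.03 (adjusted p = 0.048). That call was lost under median-of-ratios scaling (adjusted p = 0.0853) and after the correction for GC content and transcript length (adjusted p = 0.199). An RNA level does not check the action of an enzyme inhibitor. For the partners WDR77 and CLNS1A the interactions of 0.16 ± 0.08 (adjusted p = 0.237) and -0.10 ± 0.05 (adjusted p = 0.205) missed the threshold. PRPF38B, a splicing factor gene, held its rise at 1.83-fold and 1.87-fold (interaction 0.02 ± 0.06, adjusted p = 0.831). TIMELESS, of the replication fork, went from 0.760 to 0.659 and missed the threshold (-0.15 ± 0.04, adjusted p = 0.0801). The interaction of MDM4 was not tested because its mean level was under 1 RPKM.

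Cholesterol genes were raised by the drug at both days with no gene past the threshold for a difference between days. Of 21 genes 13 were higher at day 3 and 14 at day 5, against 15.6% and 21.1% of all genes. The median interaction was -0.04, the same as over all genes. MHC class I and peptide loading genes were lowered at day 3 (10 of 13, against 21.4% of all genes) and day 5 (9 of 13, against 35.1%). They rose with time in DMSO (12 of 13, against 20.7% of all genes) and in the drug (9 of 13, against 6.81%). They had 1 interaction past the threshold, HLA-E (-0.21 ± 0.05, adjusted p = 0.0467), or 7.69% called, near the 7.46% of all genes. Under median-of-ratios scaling, and also after the correction for GC content and transcript length, 0 of the 13 were lower and 1 was higher. With totals without ribosomal RNA and mitochondrial genes 0 passed. Among 11 interferon-stimulated genes IFITM2 and BST2 were lower and DTX3L higher (27.3% called against 7.46% of all genes). After the correction for GC content and transcript length 1 of the 11 was lower and 0 higher.

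Transcript length and GC content moved with the interaction. In 5 equal bins of the longest annotated transcript the median interaction went from -0.12 in the shortest to 0.06 in the longest, and the bins held 103, 103, 64, 34 and 22 genes with a lower effect and 5, 7, 15, 23 and 96 with a higher one. The genes with a higher effect had a median transcript of 5929.5 bases and 40.9% GC, those with a lower effect 2120.5 bases and 56.9% GC, and all genes 2960.5 bases and 50.7% GC. The trend was larger in the DMSO change with time (medians of 0.08 in the shortest and -0.05 in the longest bin) than in the EPZ015666 change (-0.04 and 0.01). By library, the median deviation of the longest bin minus that of the shortest was -0.15 and -0.09 in the DMSO libraries A and B of day 5, 0.11 and 0.07 in the drug libraries of day 5, and between -0.01 and 0.06 at day 3. After the correction 177 genes passed, 86 higher and 91 lower, with 130 of the 472 among them. Of the 14 largest negative interactions 11 still passed (not RPS24P8, TNNC1 and UQCC2), and of the 14 largest positive 11 (not AHNAK, MKI67 and PANK3). The part of transcript length and GC content in the interaction was not tested further.

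**Figure D5:**
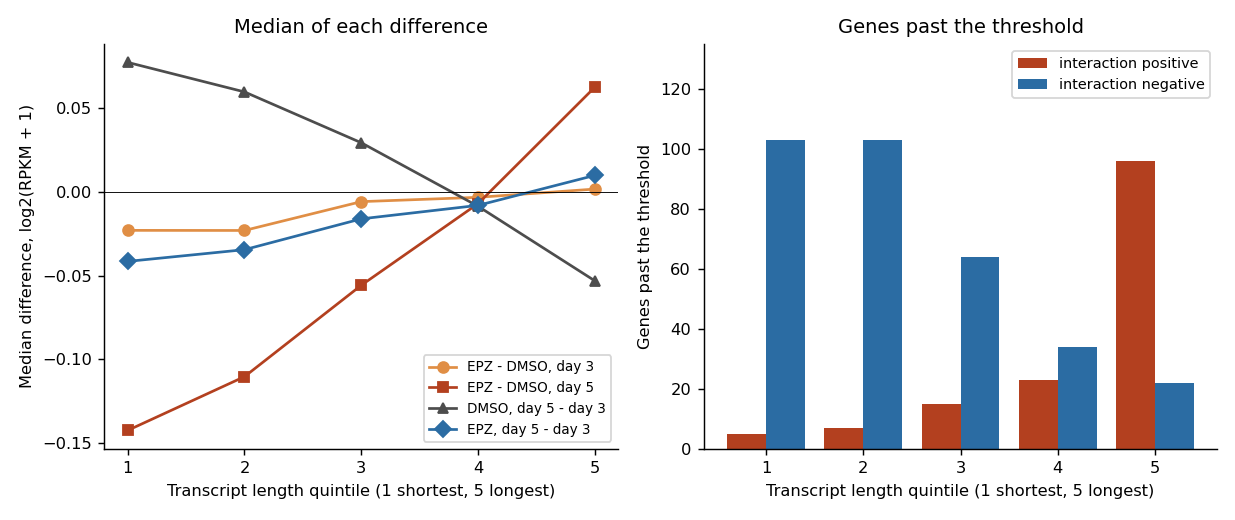
Left, median of each of 4 differences on log2(RPKM + 1) in 5 equal bins of genes by transcript length (x axis). Right, number of genes past the threshold for a positive or negative interaction in each bin. The DMSO change with time goes from 0.08 in the shortest bin to -0.05 in the longest, and 96 of the 146 positive interactions are in the longest bin.

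BT549, a breast cancer line of the study, had the same 4 groups and its own controls, so the interaction could be compared between the lines in 1 fit of 16 libraries over 5370 genes. It differed between them for 150 genes (2.79%), higher in OVCAR8 for 101 (1.88%) and lower for 49 (0.912%). Of the 472 OVCAR8 genes 414 were tested in both lines. Over the 5370 genes, 975 passed in BT549 (18.2%) and 64.7% had the same sign in both lines. In BT549 335 of the 414 had the same sign (80.9%), 147 passed with that sign and 13 with the other, and for 35 the difference between the lines passed. HSPA5 had an interaction of -0.21 in BT549 and differed by 0.63 ± 0.08 (adjusted p = 0.0118), and HYOU1 had -0.12 and differed by 0.46. AHNAK and MAP1B were each at -0.22 in BT549 and differed by 0.77 and 0.67. The large negative interactions did not pass as different: CEBPD was at -0.49 in BT549 (difference -0.24, adjusted p = 0.62), CDKN1C at -0.88 (0.15, adjusted p = 0.692) and BCAM at -0.66 (0.07, adjusted p = 0.75). A p above the threshold does not show that the lines act alike.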

How the data were processed

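The authors deposited RPKM of 16591 gene symbols for 24 poly(A) libraries. Counting was by featureCounts on GRCh38, per the submitters' processing notes. The aligner is not given in the sources used here. Times the gene span in GENCODE v29, introns included, the values gave whole reads within 0.02 for 100% of those under 1000 reads, so genes with long introns have low RPKM, and read totals are recovered ones.

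Values were taken as log2(RPKM + 1), which understates changes of low genes. Genes with a mean of at least 1 RPKM over the 8 OVCAR8 libraries were fitted in limma 3.58.1 (R 4.3.3), 1 mean per group, with a variance trend. P-values are two-sided, adjusted by Benjamini-Hochberg over all genes tested in a comparison, with a threshold of 0.05. SEs are limma's, and ratios of levels are of group means in RPKM. The fit was tested on simulated data. The replicate letters were treated as labels.

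Members and the 45 gene lists (1201 members, 805 tested) were chosen with earlier results of these data known. Named by rule were the 14 largest interactions in each direction at a mean of at least 5 RPKM, the 5 largest with opposite drug effects, 3 genes per list and 14 fixed genes. Some other list genes past the threshold are named with their list, and others are not named. Positions are from GENCODE v29. Alternatives changed the pseudocount, filter, scaling, variance model, samples and replicate block. A correction for GC content and transcript length (lowess, span 0.3) and limma-voom on recovered reads were chosen after seeing the data.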

Additional observations from a re-analysis of the deposited data

Results flagged for a closer look

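The drug effect of OVCAR8 differed between day 5 and day 3 for 472 genes in the test of the difference itself, and this difference differed between OVCAR8 and BT549 for 150 genes (limma, adjusted p below 0.05).

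Among the genes named by rule, 8 had an interaction that differed between the lines, given as OVCAR8 minus BT549 on the log2 scale. It was higher in OVCAR8 for AHNAK (0.77), MAP1B (0.67), HSPA5 (0.63), SLC38A2 (0.52), ADAMTS1 (0.48) and HYOU1 (0.46). It was lower for PRMT5 (-0.43) and TIMELESS (-0.34), both of which had positive values in BT549 (0.27 and 0.19). The causes were not tested.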

How the results depend on the processing

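The 472 genes past the threshold (146 higher, 326 lower) became 149 (65 and 84) of 16078 without a filter on low values, 832 (302 and 530) in 1 fit over all 24 libraries, 177 (86 and 91) after the correction for GC content and transcript length, and 1959 (1023 and 936) of 12423 with limma-voom on recovered reads, which called 445 of the 470 it tested. Higher genes were 81 at a mean of at least 5 RPKM, and median-of-ratios scaling gave 248 higher and 184 lower. Leaving out 1 library at a time gave 0 to 6 genes (0 to 3 higher, 0 to 3 lower), with fewer residual degrees of freedom and a group of 1 library assumed to vary like the others. With the replicate block 5 genes passed (2 higher, 3 lower). Deviations of same-lettered libraries correlated between -0.50 and 0.08 over pairs of groups. This does not decide whether the letters pair cultures, and the labels do not say.

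Drug effects at day 5 passed for 5730 genes without a filter, 1490 at 5 RPKM, 6952 with recovered reads and 2707 to 3581 without 1 library. At day 3 the counts were 973 at 5 RPKM, 4817 with recovered reads and 1383 to 2236 without 1 library. The DMSO change gave 1022, 4626 and 1173 to 2310, and the EPZ015666 change 589, 2740 and 225 to 1028, with 662 under the replicate block. The difference from BT549 gave 364 genes without a filter, 67 with the replicate block and 54 to 271 without 1 library.

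The other counts over all genes kept within 1.5 times. Of 42 lists with at least 5 tested members, 18 had a median that changed sign under 1 or more settings, the cause of which was not tested. Histone genes (-0.10) became 0.045 without a filter, 0.056 after the GC and length correction and 0.0094 with recovered reads. Ribosome biogenesis (-0.027) became 0.0062 without a filter, 0.014 under median-of-ratios scaling, 0.071 after the GC and length correction, 0.015 with recovered reads and -0.041 to 0.013 without 1 library. Collagens, integrins and matrix (-0.013) became 0.0031 with a pseudocount of 0.1, 8.9e-05 without a filter, 0.028 under median-of-ratios scaling, 0.011 with totals without ribosomal RNA and mitochondrial genes, 0.026 after the correction and -0.037 to 0.017 without 1 library. NRF2 targets (-0.037) became 0.0019 without a filter, 0.054 after the correction and 0.0080 with recovered reads. Metallothioneins (-0.046) became 0.024 after the correction, 0.036 with recovered reads and -0.10 to 0.0051 without 1 library. The p53 targets became 0.012 without a filter and 0.022 after the correction, which also gave 0.0096 for cholesterol genes, 0.023 for tubulins and 0.040 for S100 proteins.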

Other observations

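Some genes under 5 RPKM, chosen after their values were seen, had interactions of at least the size of many named by rule. CLDN1, a tight junction protein, is described by its values alone. Its DMSO libraries were all below 1 RPKM, so it met the filter of a mean of 1 RPKM only through its drug libraries. Its levels were 0.565 and 0.607 RPKM in DMSO and 1.28 and 1.31 in EPZ015666 at day 3, and 0.477 and 0.511 in DMSO and 2.30 and 2.39 in EPZ015666 at day 5. The drug libraries lay above DMSO at both days and rose with time, and the interaction was 0.63 ± 0.04. In BT549 it was -0.09, a difference of 0.72 ± 0.08.

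KRT17, a keratin, and KAZALD1, a secreted protein, moved in DMSO. KRT17 had 3.26 and 3.52 RPKM in DMSO at day 3 and 9.29 and 9.77 at day 5, against 1.37 and 1.69, then 2.96 and 2.75 in EPZ015666 (interaction -0.65 ± 0.10, adjusted p = 0.0278). KAZALD1 had 2.07 and 2.38 RPKM in DMSO at day 3 and 4.13 and 4.72 at day 5, with 1.38 to 1.62 in the 4 drug libraries (-0.69 ± 0.10, adjusted p = 0.0278). SNHG18, a small nucleolar RNA host gene, was raised 1.48-fold at day 3 and lowered to 0.775 of DMSO at day 5 (-0.74 ± 0.08, adjusted p = 0.0257). CXCL5, a chemokine, had 2.49 and 2.72 RPKM in EPZ015666 at day 5 and 0.978 to 1.52 in the other 6 libraries (0.82 ± 0.15, adjusted p = 0.0396).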
